A study of Homo sapiens with 12 samples.

Results

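Monomethylation of lysine 9 of histone H3 (H3K9me1) was described over the keratin gene clusters of human chromosomes 12 and 17 in HCT116 cells, an established colorectal carcinoma line. The windows were set by position in hg19: the type II cluster at chr12:52550001-53360000 (810 kb), the type I cluster at chr17:38800001-39800000 (1000 kb), and 500 kb on either side of each. KRT8 and KRT18 lie in a 60 kb stretch at the right end of the type II window, chr12:53290001-53350000. The clusters hold 54 keratin genes, 27 in each, and 1974 of the 2264195 regions in the 4 deposited H3K9me1 lists.

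All cells were at passage 19 and were grown in RPMI-1640 with 10% fetal bovine serum. The control libraries were taken at 0 hr, and the restricted libraries after 24 hr in RPMI-1640 without methionine, also with 10% serum, following a PBS wash. Each condition had 2 libraries, lettered A and B, and each library had an input. The design asks where H3K9me1 lay before and after the restriction. Methionine is the precursor of S-adenosylmethionine, the methyl donor of histone methyltransferases. No H3K9me1 library came from cells kept 24 hr in complete medium, so the effect of the restriction cannot be told apart from that of time in culture. The labels do not say whether A and B were separate cultures, so p-values measure only the spread between these libraries.

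Keratins are the intermediate filament proteins of epithelial cells. A type II keratin pairs with a type I keratin to form a filament, and which pair a cell makes marks its epithelial type. KRT8 and KRT18 are the pair of simple epithelia, the gut lining and colorectal carcinoma cells among them. KRT18 is a type I gene that lies beside KRT8 in the type II cluster. H3K9me1 is the lowest of the methylation states of this lysine, from which the dimethyl and trimethyl states are made.

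In the RefSeq gene order, taken from GRCh38 with none of its coordinates, the type II cluster runs from KRT80 to KRT8 and KRT18. KRT7, a keratin of simple epithelia, lies beside KRT80. Next to KRT7 come the hair keratins KRT86, KRT81, KRT83, KRT85, KRT84 and KRT82. KRT75, KRT6B, KRT6C, KRT6A and KRT5 follow. KRT5 belongs to the basal layer of stratified epithelia, and the KRT6 genes to hair follicles and activated epidermis. KRT71, KRT74, KRT72 and KRT73, of the inner root sheath of the hair, come next. The order then runs KRT2, KRT1, KRT77, KRT76, KRT3, KRT4, KRT79, KRT78, KRT8 and KRT18. KRT1 and KRT2 belong to the differentiated epidermis, KRT3 to the cornea and KRT4 to the oral and oesophageal lining. All 27 protein-coding genes between the first and the last are keratin genes.

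The type I cluster runs from KRT24 through KRT25, KRT26, KRT27 and KRT28, of the inner root sheath, to KRT10, the epidermal partner of KRT1. KRT12 of the cornea, KRT20 of the intestinal lining, KRT23, KRT39 and KRT40 follow. A block of 34 genes for keratin-associated proteins, the matrix proteins of the hair shaft, then separates KRT40 from KRT33A. On its far side lie KRT33A, KRT33B, KRT34, KRT31, KRT37, KRT38, KRT32, KRT35 and KRT36, mostly hair keratins. KRT13, KRT15, KRT19, KRT9, KRT14, KRT16 and KRT17 close the cluster. KRT19 is a simple epithelial keratin, KRT14 is the basal partner of KRT5, and KRT16 and KRT17 are keratins of hair follicles and activated epidermis. No hg19 annotation was used, so bins and regions are given by position. They are not assigned to single genes, exons or introns, apart from the KRT8 and KRT18 stretch.

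The region caller counted 30952210 and 31683422 tags (the reads given to it) for controls A and B. For restricted A and B it counted 39452512 and 35134998. The lists name between 10 and 21 chromosomes, so the 8 that all 4 share (1, 2, 6, 7, 10, 12, 16 and 17) served as each library's reference. Regions covered 12.4%, 15.1%, 5.72% and 14.8% of them in the same order. Restricted A thus had the most tags and the smallest covered share, and it stands apart from the other 3 libraries. Every level below is a relative density: the covered share of a window divided by that library's covered share of the 8 chromosomes, so that 1 is the library's own average. Most regions were weak, since 95.7% to 99.3% had a deposited −log10 p under 2, and single regions carry little weight. With 2 libraries per condition, no exact permutation test can go below a p of 0.33.

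Control cells carried dense H3K9me1 over the type II cluster. Regions covered 22.3% of it in control A and 27.3% in control B, against 2.87% in restricted A and 19.1% in restricted B. The relative density was 1.80, 1.80, 0.502 and 1.29 in the same order, in which all further sets of 4 values are given. Both restricted libraries thus lay below both controls, and restricted A, but not restricted B, fell under its own average. The means were 1.80 ± 0.00480 (SD, n = 2) in control and 0.896 ± 0.557 (SD, n = 2) in restricted cells. The log2 difference was −1.16 ± 0.68 (SE), with an exact two-sided permutation p of 0.33, the smallest possible. Restricted A stood at 0.279 of control A and restricted B at 0.715 of control B. With only regions of a −log10 p of at least 1.5, or of a fold of at least 2, the conditions overlapped (exact permutation p = 0.667 for each). Restricted A set much of the size: without it the log2 difference was −0.48, and without restricted B it was −1.84.

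The cluster was compared with 1501 windows of 810 kb tiled over the 8 chromosomes. Of these windows, 94.8% were less dense than the type II cluster in control A and 97.9% in control B. The shares were 11.0% in restricted A and 79.3% in restricted B. The cluster was therefore among the densest windows of both controls and fell to the lower end of the range in restricted A. Both restricted libraries lay below both controls in 23.8% of the tiled windows, so that order alone is common. Of the 1500 windows with regions in every library, 0.6% had a lower log2 difference than the cluster, and the median was 0.08. That rank draws on restricted A, without which the cluster's log2 difference was −0.48, and no rank was computed without it. The clusters were chosen with earlier results of these data known, so the rank is a description only. In the 150 windows densest in the controls (relative density at least 1.64), the median log2 difference was −0.49. These were picked on the control values that the difference subtracts, so some fall is built in.

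**Figure D1:**
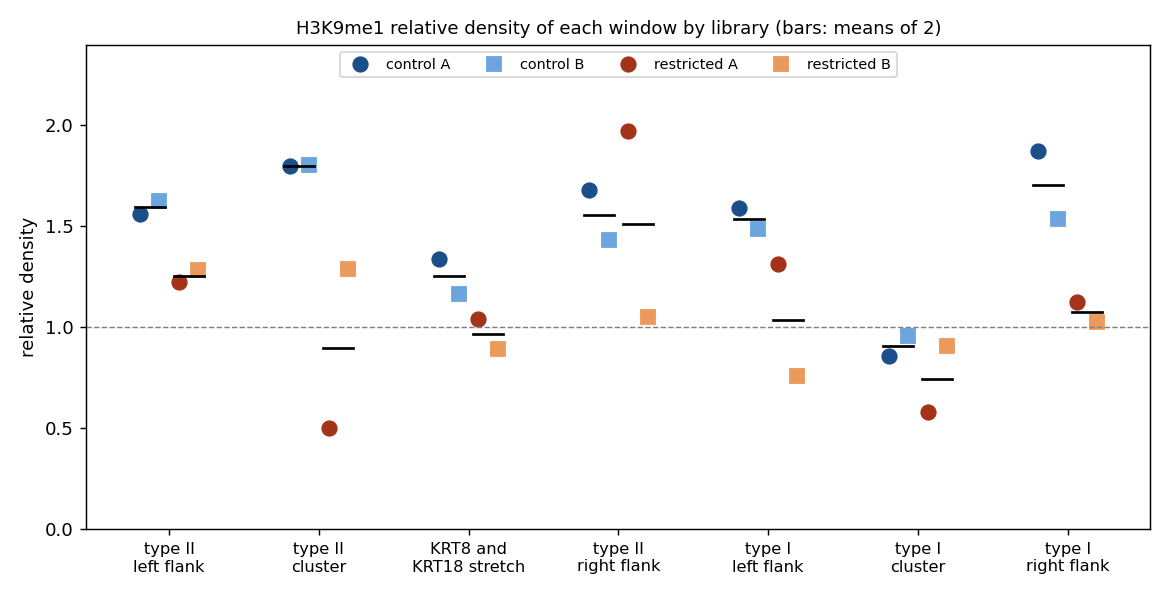
Relative density of H3K9me1 (vertical axis, no unit, 1 is the library's average over the 8 chromosomes) in each window (horizontal axis), one point per library, with horizontal bars at the mean of the 2 libraries of a condition. In the type II cluster the controls sit at 1.80 and 1.80 and the restricted libraries at 0.502 and 1.29.

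**Figure D2:**
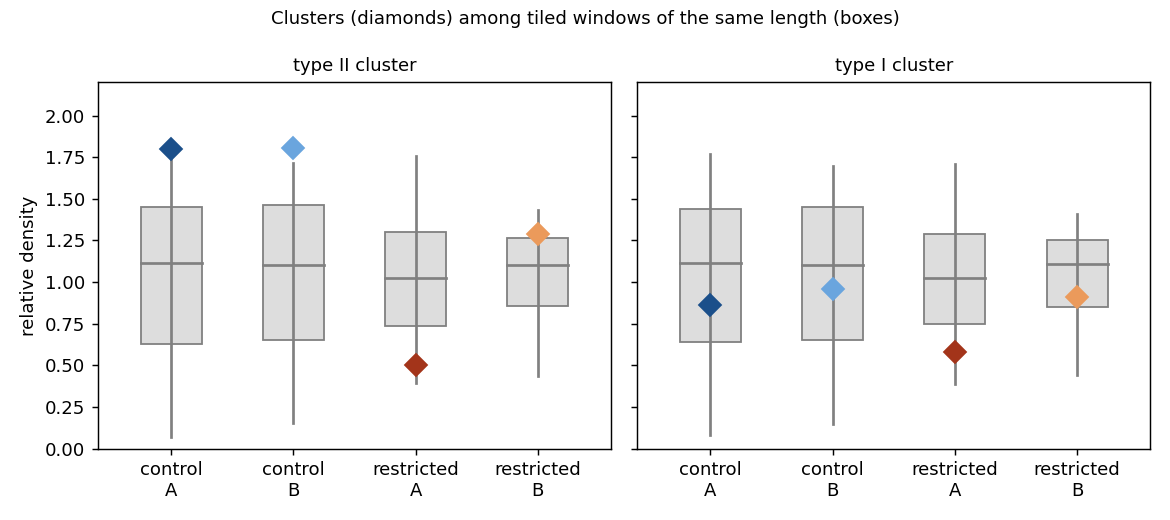
Relative density (vertical axis, no unit) of each cluster (diamonds) in the 4 libraries, set among all windows of the same length tiled over the 8 chromosomes. Boxes span the quartiles with the median as a line, and grey lines reach from the 5th to the 95th percentile. The type II cluster lies at the top of the range in both controls and near the bottom in restricted A.

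In the controls the flanks of the type II cluster were dense as well. The left flank had a relative density of 1.56, 1.63, 1.23 and 1.28 in the 4 libraries. The right flank had 1.68, 1.44, 1.97 and 1.05. Restricted A was above both controls on the right flank and below both on the left, where 2 of the 10 bins were under 0.5 in it. The lower of these, chr12:52200001-52250000, had 2.14, 1.82, 0.109 and 0.968, a log2 difference of −2.14 that is larger than that of any bin of the cluster. The log2 difference was −0.35 on the left and −0.11 on the right (exact permutation p = 0.33 and p = 1). The ratio of the cluster to both flanks together was 1.11, 1.18, 0.314 and 1.11. Restricted B was thus close to the controls on this scale and restricted A was far below them. The log2 difference of this ratio was −0.96 ± 0.91 (SE; exact permutation p = 0.33, n = 2 per condition), and −0.05 without restricted A. Its exact permutation p was 1 with flanks of 250 kb, with the number of regions, at equal covered length and at either stricter threshold. The pileup divided by the fold had a median in the cluster of 1.32, 1.21, 1.11 and 1.24 times that of the 8 chromosomes. It is only a rough stand-in for the local background that the caller used. The part of the local background in the cluster's values was not tested.

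Within the cluster, regions were also wider in the controls. Median widths were 441.5 bp, 508 bp, 305 bp and 409 bp in the order above, against 372 bp, 386 bp, 324 bp and 377 bp over the 8 chromosomes. The longest stretch without a region was 12.2 kb, 9.82 kb, 90.3 kb and 15.5 kb. The stretch of 90.3 kb in restricted A lay at chr12:52557737-52648071, near the left end of the window where KRT80 opens the gene order. Windows of this length had a median longest gap of 20.3 kb, 16.6 kb, 39.4 kb and 15.2 kb. Gaps were thus shorter than usual in the controls, near the usual length in restricted B and longer than usual in restricted A.

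Across 50 kb bins, the 2 controls were high along nearly the whole type II cluster. The 16 bins had a median relative density of 1.82, 1.81, 0.402 and 1.33 in the 4 libraries. No bin was under 0.5 in either control or in restricted B, and 9 of 16 were in restricted A. Over all 24175 bins tested, 24.3%, 22.8%, 22.3% and 10.6% were under 0.5. Both restricted libraries lay below both controls in 13 of the 16 bins and above them in 0, against 19.4% and 29.4% of all bins. The log2 difference was negative in 15 of 16 bins with a median of −1.24, and the median over all bins was 0.10. Windows picked as dense in the controls had a negative median as well. In the 1967 tiled windows of 60 kb densest in the controls (relative density at least 1.81), the median log2 difference was −0.75, with no 0.1 added. They were picked on the control values that the difference subtracts, so some fall is built in. Without restricted A the median of the 16 was −0.44 and 14 were negative, and without restricted B it was −1.85 and 16 were.

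No bin passed limma with Benjamini-Hochberg adjustment at 0.05: 0% of all bins were called, and the smallest adjusted p in the cluster was 0.231. At an unadjusted p under 0.05, 8 of 16 bins passed, against 15.6% of all bins. The call depended on the restricted libraries. Without restricted B, 13 of the 16 bins were called, all lower, and 20.4% of all bins were called (4920, of which 2940 lower). Without restricted A, 1 of the 16 was called, and 2.2% of all bins (532). Each of these fits has a single restricted library, which is assumed to vary like the controls.

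The densest bin of the cluster was chr12:52800001-52850000, with 2.65 and 2.35 in the controls and 0.382 and 1.96 in restricted A and B. The bin at chr12:52650001-52700000 had 2.60, 2.08, 0.741 and 1.37. At chr12:52900001-52950000 the values were 2.21, 2.26, 0.596 and 1.42. In all 3 bins both restricted libraries were below both controls, with log2 differences of −1.38, −1.13 and −1.18.

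The largest falls among bins with no overlap between conditions came at 3 other places. The bin chr12:52600001-52650000, most of which lies in the long gap of restricted A, had 2.04, 1.70, 0.0868 and 1.28 (log2 difference −1.95). At chr12:52700001-52750000 the relative density was 2.04, 2.15, 0.160 and 1.17 (log2 difference −1.94). At chr12:53200001-53250000 it was 1.81, 1.83, 0.0511 and 1.70 (log2 difference −1.88). Restricted A was almost empty in these bins. Restricted B was close to the controls in the last of them and clearly lower in the others.

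The smallest adjusted p of the cluster, 0.231 by limma, was shared by 2 bins in which the restricted libraries were close to each other. At the left edge, chr12:52550001-52600000, they had 0.358 and 0.522 against 1.83 and 1.51 in the controls (log2 difference −1.72 ± 0.40, SE). At chr12:52950001-53000000 they had 0.653 and 0.707 against 1.77 and 1.79 (log2 difference −1.27 ± 0.36, SE). The only bin of the 16 with a positive difference was chr12:52850001-52900000, which had 0.713, 1.11, 0.823 and 1.19. Its log2 difference of 0.14 was under its SE of 0.42, and the conditions overlapped. It was −0.35 with no scaling, −0.033 at equal covered length and 0.21 with quantile normalization. The bin was also low in the controls, between 2 bins of over 2. The bin with the lowest mean, chr12:53250001-53300000, overlaps the start of the KRT8 and KRT18 stretch and had 0.869, 1.84, 0.417 and 0.581.

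**Figure D3:**
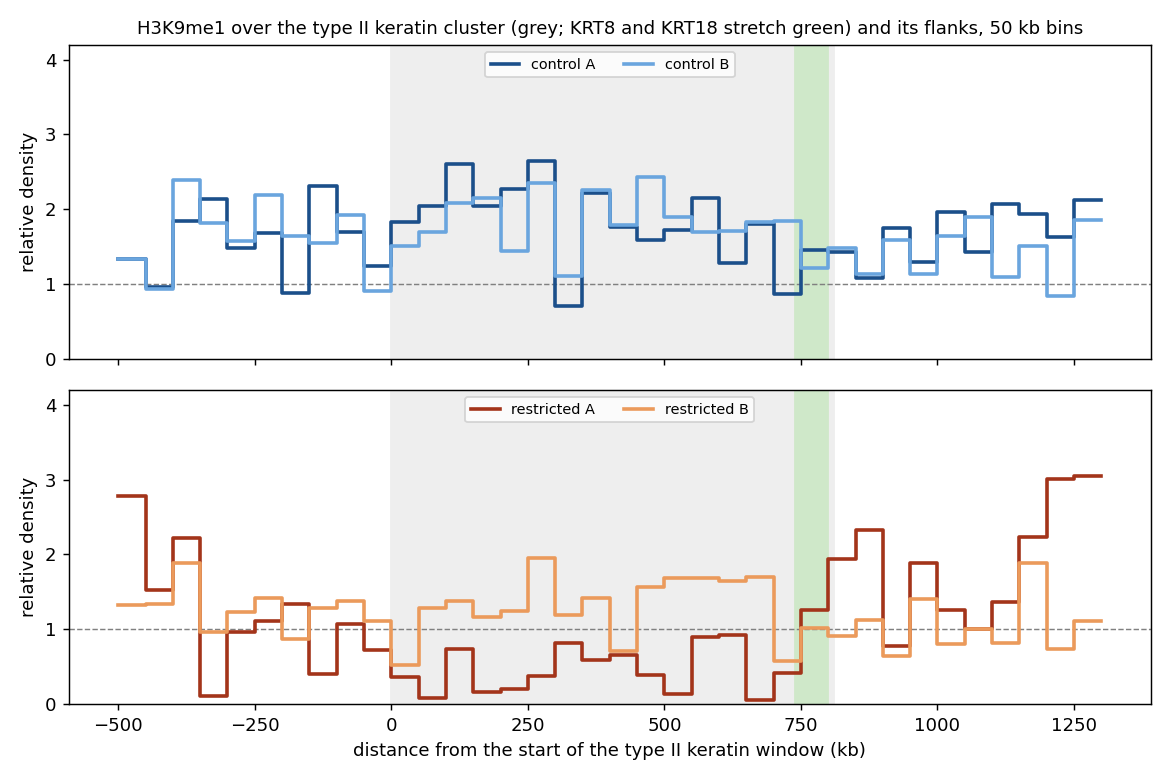
Relative density of H3K9me1 (vertical axes, no unit) in 50 kb bins by distance from the start of the type II window (horizontal axis, kb), with the controls above and the restricted libraries below. Grey marks the cluster and green the KRT8 and KRT18 stretch. The controls stay above 0.5 throughout the cluster, restricted A is under 0.5 in 9 of its 16 bins, and restricted B lies between in most bins.

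In each library the stretch of KRT8 and KRT18 lay nearer to the library average than the whole type II cluster. It held 20, 19, 6 and 15 regions, which covered 9.97 kb, 10.6 kb, 3.58 kb and 7.95 kb of its 60 kb. The value of restricted A thus rests on 6 regions, the widest of 1780 bp. The relative density was 1.34, 1.17, 1.04 and 0.895 in the 4 libraries. Both restricted libraries were again below both controls, as in 19.8% of tiled windows of 60 kb, and they lay close to them. The means were 1.25 ± 0.120 (SD, n = 2) and 0.970 ± 0.106 (SD, n = 2). The log2 difference was −0.37 ± 0.15 (SE; exact permutation p = 0.33), and of the 19664 windows of 60 kb with regions in every library 24.3% had a lower one. Here the letters gave like ratios, 0.781 for A and 0.767 for B, unlike in the whole cluster. At equal covered length the conditions overlapped in the stretch (exact permutation p = 0.667). The 740 kb of the cluster to its left, chr12:52550001-53290000, had 1.85, 1.87, 0.460 and 1.33 (log2 difference −1.25 ± 0.77, SE; exact permutation p = 0.33).

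The ratio of the KRT8 and KRT18 stretch to the part of the cluster on its left was 0.722, 0.625, 2.27 and 0.673. The stretch was thus sparser than that part in 3 libraries and denser only in restricted A. The log2 difference of this ratio was 0.88 ± 0.88 (SE), the conditions overlapped, and the exact permutation p was 0.667. No region of the stretch reached a −log10 p of 2 in any library: the highest values were 1.88, 1.78, 1.14 and 1.96. The bin chr12:53300001-53350000, which lies wholly inside the stretch, had 1.46, 1.21, 1.25 and 1.01 (log2 difference −0.22). That bin was the densest of the cluster in restricted A.

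The type I cluster was not dense in H3K9me1. Regions covered 10.7%, 14.5%, 3.31% and 13.4% of it. The relative density was 0.860, 0.957, 0.579 and 0.908 in the 4 libraries. All 4 libraries were under their own average, and restricted B lay between the controls. The means were 0.908 ± 0.0682 (SD, n = 2) in control and 0.744 ± 0.233 (SD, n = 2) in restricted cells. The log2 difference of −0.32 ± 0.33 (SE) was no larger than its error (exact permutation p = 0.667), and it was 0.00 without restricted A. It was −0.86 with only regions of a −log10 p of at least 1.5 and −0.07 with chromosome 17 as the divisor. Of 1219 tiled windows of 1000 kb, 36.6%, 41.4%, 14.7% and 29.5% were less dense, and in 23.7% both restricted libraries were below both controls. The median pileup divided by the fold in the cluster was 1.08, 1.02, 1.02 and 1.01 times that of the 8 chromosomes.

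Chromosome 17 as a whole had a relative density of 1.44, 1.31, 1.34 and 0.985, and chromosome 12 of 0.984, 1.01, 1.04 and 1.03. Restricted B thus differed from the other libraries on chromosome 17. Against its own chromosome the type I cluster stood at 0.597, 0.733, 0.432 and 0.922. It was sparse for its chromosome in both controls and in restricted A, and close to the average in restricted B.

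The type I cluster formed a trough between denser flanks in the controls. The left flank had a relative density of 1.59, 1.49, 1.31 and 0.760, and the right flank 1.88, 1.53, 1.12 and 1.03. On both flanks the restricted libraries were below both controls, with log2 differences of −0.62 and −0.66 (exact permutation p = 0.33 for each). Against chromosome 17 the left flank stood at 1.10, 1.14, 0.978 and 0.771, and the right flank at 1.30, 1.18, 0.838 and 1.04. The restricted libraries were still below both controls. That order held in 23.7% of tiled windows of 1000 kb and was not counted for windows of 500 kb. In the 122 windows of 1000 kb densest in the controls (relative density at least 1.63), the median log2 difference was −0.44. Such windows were picked on the control values, so some fall is built in here as well. The ratio of the cluster to its flanks was 0.496, 0.633, 0.476 and 1.02. The cluster was thus sparser than its flanks in both controls and in restricted A, and level with them in restricted B. The conditions overlapped on this ratio, and its log2 difference was 0.31 ± 0.58 (SE; exact permutation p = 1). Its sign rested on restricted B: without it the difference was −0.24, and without restricted A it was 0.86. It was 0.14 without control A and 0.49 without control B.

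Relative to each other, the type II cluster was denser than the type I cluster in both controls and in restricted B. The ratio was 2.09, 1.89, 0.867 and 1.42, with both restricted libraries below both controls (log2 difference −0.84, exact permutation p = 0.33). In restricted A alone the type II cluster was the sparser of the pair.

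Inside the type I cluster, sparse and dense parts lay side by side. The 20 bins had a median relative density of 0.647, 0.952, 0.557 and 0.895, and 7, 4, 6 and 0 of them were under 0.5. Both restricted libraries lay below both controls in 6 bins (30%) and above them in 5 (25%), against 19.4% and 29.4% of all bins. The log2 differences ran from −2.20 to 1.48 with a median of −0.16, and 11 of 20 were negative. That median was −0.28 or 0.26 without control A or B, and 0.25 or −0.32 without restricted A or B, so it had no steady sign. Limma called 0 of the 20 bins (smallest adjusted p 0.231), and 5 had an unadjusted p under 0.05 (25%, against 15.6% of all bins). Without restricted B 8 bins were called, 1 of them higher, where 20.4% of all bins were. Without restricted A 1 was called, where 2.2% of all bins were.

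Over the 7 bins at the right end of the cluster, chr17:39450001-39800000, the relative density was 1.31, 1.19, 0.451 and 1.01. The bins were not alike: the first, chr17:39450001-39500000, had 0.623, 0.894, 0.665 and 1.06, and the next, chr17:39500001-39550000, had 0.343, 1.15, 0.974 and 1.25, so restricted A was above control A in both. The largest fall of either cluster came at chr17:39650001-39700000, with 1.77, 1.31, 0.101 and 0.513 (log2 difference −2.20 ± 0.56, SE; limma adjusted p = 0.231). Its left neighbour at chr17:39600001-39650000 had 1.23, 1.17, 0.0854 and 0.639. Its right neighbour at chr17:39700001-39750000, the densest bin of the type I cluster, had 2.38, 2.07, 0.572 and 1.13. In these 3 adjoining bins both restricted libraries were below both controls and restricted A was the lowest. The longest stretch without a region in restricted A, 79.8 kb at chr17:39604069-39683896, lay here. Its counterparts were 28.4 kb and 15.8 kb long in the controls and 21.1 kb in restricted B.

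The last bin, chr17:39750001-39800000, was dense in control A (1.77) and restricted B (1.42) and less so in control B (0.935) and restricted A (0.650). The conditions overlapped there, and the log2 difference was −0.38. Near the left end, chr17:38850001-38900000 had 1.31, 1.31, 1.05 and 0.871 (log2 difference −0.42), with both restricted libraries below both controls.

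The middle of the type I cluster was under the library average in all 4 libraries, but it was not a trough in restricted A. The 6 bins over chr17:39150001-39450000, chosen as the run under 0.5 in control A after the values were seen, had a relative density of 0.228 in control A. Control B stood at 0.620, restricted A at 0.573 and restricted B at 0.775. Restricted A had about the same over the whole cluster (0.579) and less over the 7 bins to the right of the run (0.451). Control A is low here by the choice, so a rise from control A is built in. The other 3 libraries were also under their averages. Restricted A lay under control B, so the conditions overlapped over the run. The bins of the run differed in direction. The one with the lowest mean, chr17:39250001-39300000, had 0.0573, 0.330, 0.602 and 0.649. With a log2 difference of 1.48 it had the largest rise of either cluster (limma adjusted p = 0.292). The next largest rises without overlap were at chr17:39200001-39250000 (0.178, 0.455, 1.16 and 0.703; log2 difference 1.36) and at chr17:39000001-39050000 (0.557, 0.471, 0.856 and 1.08; log2 difference 0.80). The other sparse bins were chr17:39350001-39400000 (0.183, 0.673, 0.371 and 0.797) and chr17:39400001-39450000 (0.378, 0.418, 0.501 and 0.858). At chr17:39300001-39350000 restricted A was the lowest library and the difference was negative (0.215, 1.15, 0.0714 and 0.901; log2 difference −0.60). In the gene order the block of keratin-associated protein genes lies between the 2 groups of type I keratin genes, but without hg19 positions it cannot be placed on these bins.

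**Figure D4:**
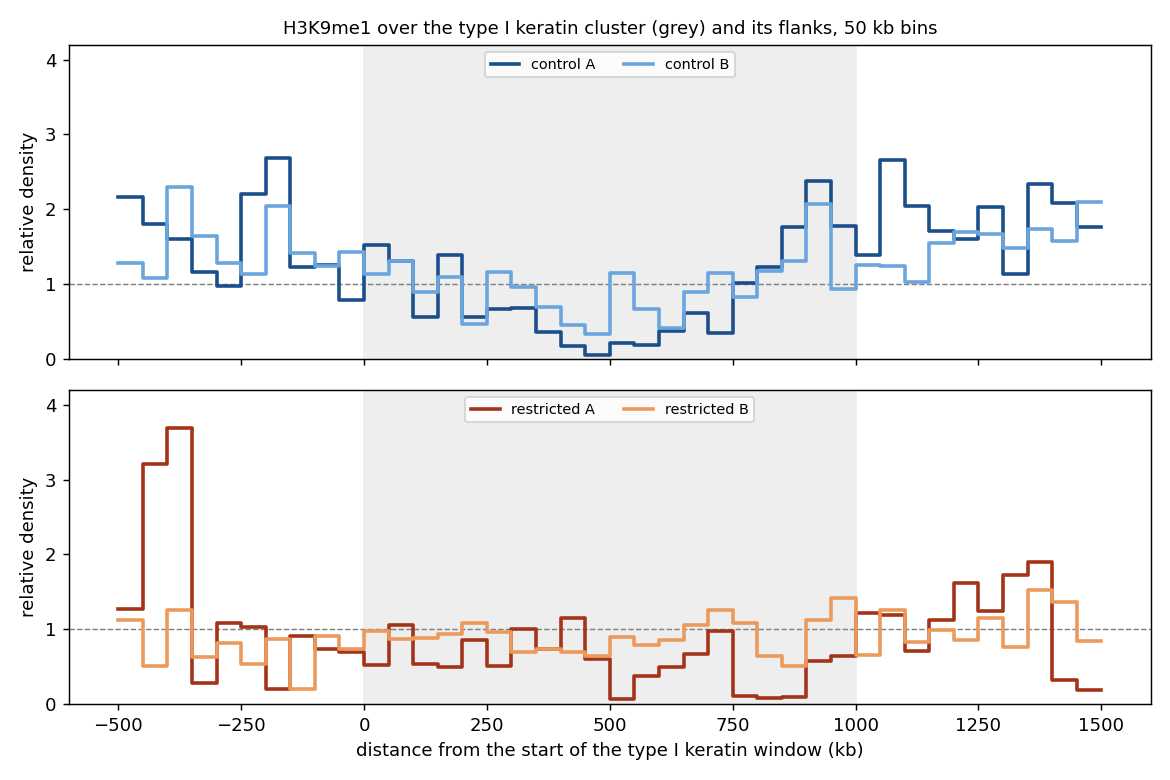
Relative density of H3K9me1 (vertical axes, no unit) in 50 kb bins by distance from the start of the type I window (horizontal axis, kb), with the controls above and the restricted libraries below and the cluster in grey. The controls dip in the middle of the cluster, to 0.0573 in control A and 0.330 in control B, and rise to 2.38 and 2.07 near its right end, where restricted A falls to 0.0854.

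Along each cluster the bins of the controls resembled each other more than those of restricted A. Over the 16 type II bins Pearson's r was 0.50 between the controls, 0.39 and 0.42 between restricted B and the controls, and −0.26 and −0.37 between restricted A and the controls. Over the 20 type I bins r was 0.75 between the controls, 0.26 and 0.22 for restricted B, and −0.21 and −0.19 for restricted A. Over all 24175 bins it was 0.81 between the controls, 0.57 and 0.61 for restricted B, and 0.35 and 0.42 for restricted A. Restricted A was thus the least like the controls in general as well. The bins of a library share its depth and input and adjoin each other, so these values are descriptions only.

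Overlapping regions of the 4 libraries merged into 528 in the type II cluster and 623 in the type I cluster. In the type II cluster 47.5% of them came from 1 library, and in the type I cluster 64.2%, against 59.0% over the 8 chromosomes. All 4 libraries held 14 in the type II and 10 in the type I cluster, which is 2.65% and 1.61% against 4.65%. Regions that both controls held and neither restricted library did numbered 53 (10.0%) and 44 (7.06%), against 5.88%. The reverse class numbered 5 (0.947%) and 10 (1.61%), against 2.61%.

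Merged regions that only restricted A lacked numbered 103 in the type II cluster (19.5%) and 38 in the type I cluster (6.10%), against 7.43% over the 8 chromosomes. The libraries held 58.1%, 58.9%, 11.6% and 51.7% of the merged regions of the type II cluster. For the type I cluster the shares were 36.0%, 46.5%, 16.7% and 48.6%. Over the 8 chromosomes they were 41.4%, 48.3%, 23.8% and 49.9%. Restricted B was thus above both controls there and in the type I cluster, and below both in the type II cluster.

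The overlap of covered bases was lowest for restricted A as well. A library that covers few bases can share few. These values, like the regions that only restricted A lacked, therefore partly restate its small covered share. Bases covered in both of a pair of libraries, as a share of those covered in either, made up 17.2% for the 2 controls in the type II cluster, 17.3% for control A with restricted B and 15.8% for control B with restricted B. Restricted A shared 1.22% with control A, 2.79% with control B and 3.31% with restricted B. In the type I cluster the controls shared 10.0% and restricted A at most 3.42% with any library. Over the 8 chromosomes the controls shared 14.5%, and restricted A between 6.85% and 7.78%.

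**Figure D5:**
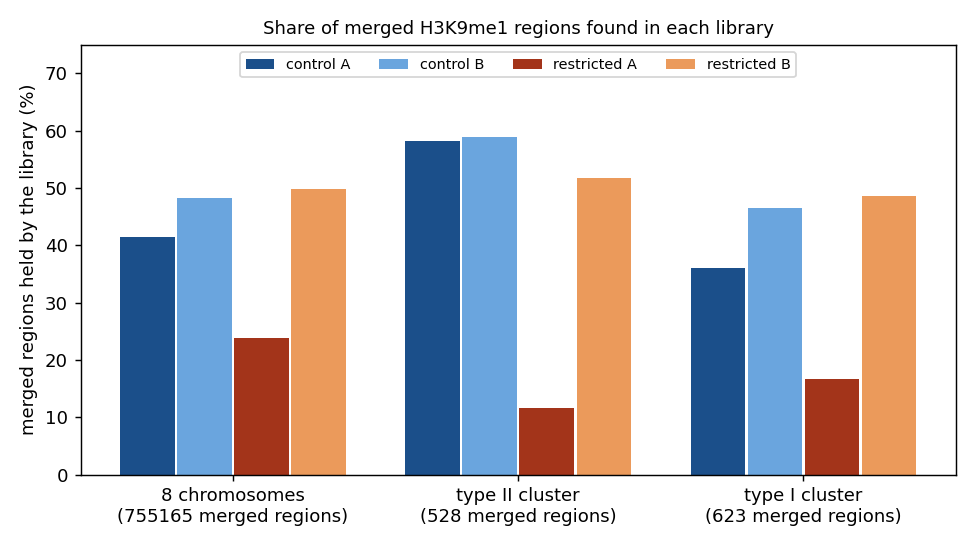
Share of merged H3K9me1 regions (vertical axis, percent) that each library held, over the 8 chromosomes and in each cluster (horizontal axis, with the number of merged regions). Restricted A held 23.8% over the 8 chromosomes, 11.6% in the type II cluster and 16.7% in the type I cluster.

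The widest merged region held by all 4 libraries in the type II cluster lay in the KRT8 and KRT18 stretch, at chr12:53320835-53324462. It was covered over 2426 bp and 927 bp in the controls, and over 100 bp and 968 bp in restricted A and B. The next widest were chr12:53025152-53028593 (363 bp, 3353 bp, 526 bp and 1148 bp) and chr12:53193254-53196259 (574 bp, 1320 bp, 1059 bp and 1618 bp). A merged region is wide mainly through 1 library in the first 2 of these. The widest control-only region of the cluster was chr12:52701891-52704082, with 2138 bp in control A and 754 bp in control B. The widest restricted-only region, chr12:53312990-53313556, was also in the KRT8 and KRT18 stretch, with 100 bp in restricted A and 567 bp in restricted B. The KRT8 and KRT18 stretch thus held both the widest common region and the widest restricted-only one of the type II cluster.

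In the type I cluster the widest common region was chr17:39525503-39528945, covered over 208 bp, 274 bp, 200 bp and 3443 bp, nearly all through restricted B. The regions chr17:38861772-38864480 (964 bp, 1704 bp, 643 bp and 439 bp) and chr17:38893883-38896241 (471 bp, 2218 bp, 313 bp and 335 bp) followed, both widest in control B. The widest control-only region, chr17:39613784-39616847, had 188 bp in control A and 3064 bp in control B. It lay inside the long gap of restricted A. The widest restricted-only region, chr17:39466336-39467364, had 846 bp in restricted A and 238 bp in restricted B.

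The strongest region of either cluster belonged to restricted A, although that library had the fewest. It lay at chr17:39789801-39790084, in the last bin of the type I cluster, with a deposited −log10 p of 4.14 and a fold of 3.34. Control B covered 128 bp of it, restricted B 148 bp and control A none, and the strongest type I region of control B (chr17:39789944-39790071, −log10 p 2.70) is part of it. In the type II cluster the strongest region was control A's at chr12:53102819-53103121, with a −log10 p of 3.51 and a fold of 3.27. Neither control B nor restricted A covered it, and restricted B covered 56 bp. The strongest type II regions of control B (chr12:53279246-53279508), restricted A (chr12:53172505-53172854) and restricted B (chr12:53168533-53168636) reached a −log10 p of 2.12, 2.17 and 2.75. Those of control A (chr17:38997976-38998086) and restricted B (chr17:39774670-39775113) in the type I cluster reached 2.47 and 2.30. Of the type II regions, 22, 1, 1 and 7 had a −log10 p of at least 2.

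The trimethylated form of the same lysine (H3K9me3), a mark of heterochromatin, had few peaks in these windows in the lists of the same study. These lists hold 1542, 941, 2038 and 812 peaks in the order above, called at a stricter threshold, so levels of the marks are not compared. None of the 4 lists had an H3K9me3 peak in the type II cluster, the KRT8 and KRT18 stretch included. In the type I cluster control B had 1 peak, at chr17:39762598-39763112 (fold 3.32), and restricted B had 1, at chr17:39296244-39296656 (fold 2.91). The first was covered by H3K9me1 over 36 bp in restricted B alone, and the second in no library. In the flanks there was 1 peak, in restricted A at chr12:53778685-53779040, on the right of the type II cluster. No H3K9me3 peak of these windows was found in more than 1 library.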

How the data were processed

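The deposited H3K9me1 lists of 2 control (0 hr) and 2 restricted (24 hr) libraries were used, with the H3K9me3 lists for the last comparison. Build hg19, MACS2 2.1.1.20160309, SAMtools 1.5 and Bowtie2 2.1.0 are named in the submitters' processing notes. Per the file headers, the authors called broad regions in each library separately, with the input that shares its time and letter as background. The H3K9me1 cutoffs were a p of 0.0001 for strong and 0.1 for weak regions, with 1 tag kept per position; H3K9me3 had q cutoffs of 0.05 and 0.1. In the deposited files the pileup is a signal (read coverage), significance is a −log10 p, and the fold sets the pileup against the local background. These are the authors' own values, used only to describe, rank or filter regions within a list. The weak cutoff admits many weak regions, so covered length, not single regions, was measured.

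Covered lengths were divided by those of the 8 shared chromosomes. Each window was tested with an exact permutation test, two-sided, over 6 relabellings. Bins of 50 kb with a region in at least 2 libraries were fitted with limma 3.58.1 in R 4.3.3 (lmFit, eBayes with trend and robust) on log2(relative density + 0.1), with Benjamini-Hochberg adjustment over all bins; such differences understate changes of sparse bins. Bins and regions were named by rule: per cluster the 3 highest and 3 lowest mean densities, the 3 largest differences each way without overlap between conditions, the 3 widest regions held by all libraries, the widest control-only and restricted-only ones, and the strongest per library. Other bins and regions described were picked after their values were seen. The members and lists were chosen with earlier results of these data known. Scripts were tested on simulated data. Alternatives covered the divisor, threshold, amount called, merging, flanks, pseudocount, filter, bin size, scaling, the letter as a replicate block, and each library left out. Input files were not used here.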

Additional observations from a re-analysis of the deposited data

How the results depend on the processing

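The log2 difference of the type II cluster was negative under all 13 alternatives, from −1.74 with no divisor to −0.91 for the number of regions, and from −1.84 to −0.48 when 1 library was left out; its exact permutation p went from 0.33 to 0.667 at a −log10 p of at least 1.5 and at a fold of at least 2. Its ratio to the flanks was negative under all 12, and from −1.86 to −0.05 with 1 library left out; its p was 1 for the number of regions, both stricter thresholds, equal covered length and flanks of 250 kb. The KRT8 and KRT18 stretch was negative under the 11 that gave a value, with −0.48 to −0.26 leaving out 1 library. Its exact permutation p went from 0.33 to 0.667 at equal covered length and with regions within 1 kb merged. A −log10 p of at least 1.5 and a fold of at least 2 left a library with no region there. The type I cluster ran from −0.65 to 0.00 (0.0018 without restricted A) with 1 library left out. It was −0.90 with no divisor (exact permutation p = 0.667), −0.86 at a −log10 p of at least 1.5, −0.72 at a fold of at least 2 and −0.45 at equal covered length (p = 0.33 for each of these 3), −0.15 for the number of regions and −0.07 over its own chromosome (p = 1 for both). Its ratio to the flanks ran from −0.24 to 0.86 and was −0.33 for regions with a fold of at least 2. Bins called in the clusters numbered 0 under every other setting and 0 to 21 with 1 library left out. The median of all bins moved from 0.10 to −0.40 with no scaling, to −0.50 at a −log10 p of at least 1.5 and to 0.27 at equal covered length. Merging within 200 bp changed nothing, since the smallest gap between regions was 401 bp, and merging within 1 kb was added after the data were seen.

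Of 228 values for the 19 named bins, 13 changed sign. At chr12:52850001-52900000 they were −0.35 with no scaling, −1.64 at a −log10 p of at least 1.5, −0.033 at equal covered length, and −0.15 to 0.42 with 1 library left out, −0.10 among them. At a −log10 p of at least 1.5 the bins of chromosome 17 that start at 39000001, 39350001, 39400001, 39600001 and 39750001 had −0.64, −0.67, −0.68, 0.89 and 0.10. With 1 library left out, the second ran from −0.25 to 1.2 and the last from −0.89 to 0.13, with 0.05 without control A. The cause was not tested.

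With the letter as a replicate block the window differences stay as they are by construction (−1.16, −0.32, −0.37, −0.96 and 0.31), and limma called 0 bins of the clusters (smallest adjusted p 0.178). At an unadjusted p under 0.05, 12 of 16 type II bins passed with the block against 8 without. Deviations of libraries with the same letter correlated at −0.07 over all bins and at −0.20 over the 36 bins of the clusters, which does not show what the letters share. Restricted A has the most tags and the smallest covered share, and the part of depth in this was not tested.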
